A study of Mus musculus with 6 samples.

Results

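The transcripts described here encode 10 chemokines: Ccl2, Ccl3, Ccl4, Ccl5, Ccl6, Ccl7, Ccl9, Cxcl2, Cxcl10 and Cxcl16. They were taken by symbol from a deposited count table of 23337 mouse genes, and all 10 were found there. The table holds RNA sequencing of 6 bulk mouse leukemia libraries. In one arm the leukemia was treated with ccl5, and the other arm holds its controls, with 3 libraries each. According to the series title the leukemia is MLL-rearranged, and both arms are labelled as primary neonatal murine leukemia. The labels give a tertiary transplant for ccl5 replicate 1 and a primary transplant for ccl5 replicates 2 and 3 and for control replicate 3. For control replicates 1 and 2 no transplant is given, and for none of the 6 a strain, fusion partner, dose or exposure time. The labels also mark ccl5 replicate 1 as neo30 and ccl5 replicates 2 and 3 and control replicate 3 as neo10, without saying what these stand for, so the primary transplants are also the neo10 libraries. Replicate numbers of the ccl5 arm follow the order of deposition.

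Chemokines are small proteins that guide leukocytes along gradients by binding G protein-coupled receptors. CC chemokines carry adjacent cysteines near the amino terminus, and CXC chemokines have a residue between them. Monocytes and macrophages are well known sources of Ccl2, Ccl3, Ccl4 and Cxcl10, and transcription of many ligand genes is driven by NF-kB downstream of Toll-like and TNF receptors. Ccl5, the agent named for the treated arm, binds receptors that several of the other CC ligands share, among them Ccr1.

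Before the ligands are compared, the libraries themselves need describing. They fell into 3 alike pairs. The correlation of log2 CPM over 12174 genes was 0.993 between ccl5 replicates 1 and 3, 0.995 between control replicates 1 and 2, and 0.995 between ccl5 replicate 2 and control replicate 3, against 0.826 to 0.887 for every other pairing. CPM is the counts-per-million value after scaling by TMM, a trimmed-mean normalisation. Thus ccl5 replicate 3, labelled as a primary transplant, resembled the tertiary one, and the third pair joined the arms. For ccl5 replicates 1 and 3 and control replicates 1 and 2, arm and membership of a pair cannot be told apart. Whether every label matches its library was not tested, so each difference between arms holds for the labels as deposited. Y-linked reads of 4 genes summed to between 5103 and 7777 in ccl5 replicate 2 and the 3 controls, and to 0 in ccl5 replicates 1 and 3. Counts within a pair differed by more than sampling noise (mean chi-square per gene 3.63 to 7.34, where noise gives 1). This does not show that the members of a pair are independent. All 6 libraries were kept as separate samples. Gene counts summed to between 13421100 and 16613837 in ccl5 libraries and between 15507823 and 18445095 in control libraries. A floor of 3 counts corresponded to 0.16 to 0.273 CPM. The labels do not state separate animals or cultures, so p-values measure only the spread between these libraries.

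Promoter sequence in RefSeq's GRCm38.p6 set matched 5 of the 10 genes: Ccl3, Ccl6, Ccl9, Cxcl2 and Cxcl10. The 4 windows below hold the 250 bases before the start site, 5′ to 3′ on the gene's strand. They are shown because these genes differ in level by orders of magnitude yet several shared a layout across the libraries. Capitals mark matches on either strand to a loose NF-kB pattern (GGG and CC with any 5 bases between), TGANTCA for AP-1, the interferon-stimulated response element (GAAA repeated after any 2 bases), the core promoter box written TATAAA, and the PU.1 pattern GAGGAA. The windows lie at chr5:92348890-92349139 (minus strand), chr5:90903649-90903898 (plus strand), chr11:83578637-83578886 (minus strand) and chr11:83649379-83649628 (minus strand).
Cxcl10: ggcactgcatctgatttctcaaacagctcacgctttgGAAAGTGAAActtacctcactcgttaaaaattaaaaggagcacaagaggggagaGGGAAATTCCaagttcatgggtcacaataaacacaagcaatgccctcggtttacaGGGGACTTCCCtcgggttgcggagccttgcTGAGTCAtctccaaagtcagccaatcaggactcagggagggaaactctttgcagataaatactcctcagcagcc
Cxcl2: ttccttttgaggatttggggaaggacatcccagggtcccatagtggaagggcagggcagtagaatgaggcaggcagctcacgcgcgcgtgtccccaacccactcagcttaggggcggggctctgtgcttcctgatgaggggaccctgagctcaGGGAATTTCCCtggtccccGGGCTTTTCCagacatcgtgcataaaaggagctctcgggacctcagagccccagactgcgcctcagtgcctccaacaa
Ccl9: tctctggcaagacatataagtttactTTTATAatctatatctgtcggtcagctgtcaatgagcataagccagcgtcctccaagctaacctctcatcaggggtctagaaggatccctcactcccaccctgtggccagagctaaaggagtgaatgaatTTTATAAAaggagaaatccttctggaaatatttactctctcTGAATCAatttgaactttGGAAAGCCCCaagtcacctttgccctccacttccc
Ccl3: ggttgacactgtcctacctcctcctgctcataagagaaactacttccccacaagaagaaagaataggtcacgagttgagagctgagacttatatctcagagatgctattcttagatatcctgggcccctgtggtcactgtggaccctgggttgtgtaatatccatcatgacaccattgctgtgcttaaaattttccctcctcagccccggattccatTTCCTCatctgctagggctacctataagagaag

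The Cxcl10 window held the NF-kB, AP-1 and response element patterns. It had the response element at -213 to -204, NF-kB matches at -159 to -150 and within -104 to -94, and an AP-1 match at -74 to -68, counted from the start site. In the Cxcl2 window there were NF-kB matches within -97 to -87 and at -78 to -69. Ccl9 had AP-1 at -53 to -47, an NF-kB match at -35 to -26 and TATAAA letters within -94 to -87 and at -224 to -219. Ccl3 had the PU.1 letters alone, at -33 to -28, and the Ccl6 window matched none of the 5 patterns. Where a range is longer than its pattern, matches overlap each other on the same bases. Over 32851 promoter windows of this length, the NF-kB pattern occurred in 45.8%, PU.1 in 23.3%, TATAAA in 12.4%, AP-1 in 6.75% and the response element in 2.98%. These matches describe letters and say nothing of binding in these cells.

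Of the 10 ligand genes, 9 passed the filter on low counts and Ccl5 did not. In the fit of ccl5 against control libraries, 0 of these 9 passed an adjusted p of 0.05 in edgeR's quasi-likelihood test, and 0% of all 12174 tested genes did. At an unadjusted p under 0.05, Ccl2, Ccl7 and Ccl9 had lower fitted levels with ccl5 (4.67% of all tested genes) and Cxcl16 a higher one (8.99% of all tested genes). Fitted log2 fold changes were below 0 for 8 ligands (51% of all tested genes) and above 0 for Cxcl16, with a median of -2.30, beside -0.01 over all tested genes. DESeq2 called 3 of the ligands (Ccl2, Ccl9 and Cxcl16, adjusted p 0.0380, 0.0413 and 0.0175), among 1.47% of the genes it tested. Limma-voom with quality weights called all 9, among 66.5% of all tested genes. In bulk RNA, fewer cells of a producing type and less RNA per cell cannot be told apart.

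**Figure D1:**
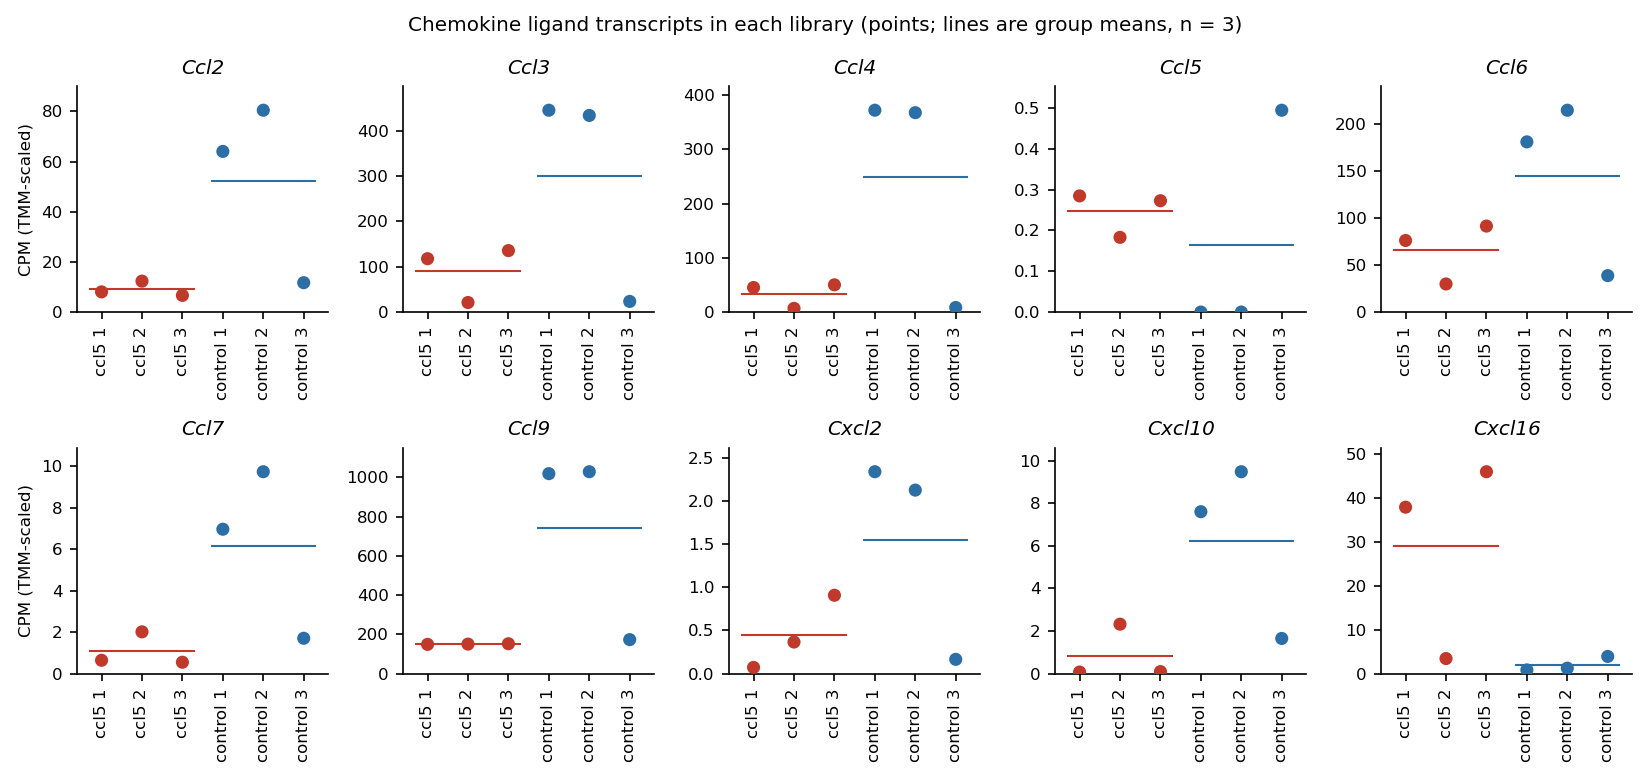
CPM of each ligand gene (vertical axes from 0) in the 3 ccl5 libraries (red, left) and the 3 control libraries (blue, right), with group means as lines. For 8 ligands control replicates 1 and 2 stood highest, while control replicate 3 lay near ccl5 replicate 2, and Cxcl16 was highest in ccl5 replicates 1 and 3.

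Among the MIP-1 chemokines and their relatives, Ccl9, also called MIP-1 gamma, was the most evenly expressed in the treated arm (chromosome 11, 83572917 to 83578636, mm10, minus strand, 4 exons). It measured 149, 149.97 and 152 CPM in ccl5 replicates 1 to 3, against 1018, 1028 and 173 CPM in control replicates 1 to 3. Every ccl5 library lay below every control library, and control replicate 3 lay much nearer the ccl5 libraries than the other controls. Ccl9 was the only ligand whose groups did not overlap, which 7.49% of tested genes showed in this direction and 8.27% in the other. Its log2 fold change was -2.30 with an SE of 0.66 (adjusted p = 0.365 in edgeR). Without control replicate 3 it was -2.77 with an adjusted p of 0.0171 in edgeR, a fit in which 1.09% of tested genes were called. For primary transplants alone it was -0.22 (SE 0.56).

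Ccl3 (MIP-1 alpha; chromosome 11, 83647843 to 83649378, minus strand) and Ccl4 (MIP-1 beta; 83662584 to 83664683, plus strand) are neighbours that attract monocytes and T cells. Ccl3 measured 118, 21.0 and 136 CPM in ccl5 replicates 1 to 3, against 446, 434 and 23.5 CPM in control replicates 1 to 3. Ccl4 measured 45.2, 6.77 and 50.2 CPM in the ccl5 arm, against 372, 368 and 8.40 CPM in the control arm. The arms overlapped for both genes, since control replicate 3 lay below ccl5 replicates 1 and 3. The lowest library for each was ccl5 replicate 2. The log2 fold change was -1.72 for Ccl3 with an SE of 1.14 (adjusted p = 0.507 in edgeR) and -2.87 for Ccl4 with an SE of 1.38 (adjusted p = 0.397 in edgeR). Size and direction depended on the libraries used. Against control replicate 3 alone the 3 ccl5 libraries gave a log2 fold change of 1.94 (SE 1.26) for Ccl3 and 1.99 (SE 1.35) for Ccl4, and primary transplants alone gave 1.71 and 1.72. Libraries with Y-linked reads, where ccl5 replicate 2 alone stands against the 3 controls, gave -3.84 (SE 2.09) for Ccl3 and -5.20 (SE 2.73) for Ccl4.

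The balance between these neighbours also differed among libraries. Per kilobase of exon, Ccl3 exceeded Ccl4 by 2.18-fold, 2.60-fold and 2.26-fold in ccl5 replicates 1 to 3, against 1.001-fold, 0.987-fold and 2.33-fold in control replicates 1 to 3. Exact 95% intervals were 0.966 to 1.04 in control replicate 1 and 0.955 to 1.02 in control replicate 2, and the lowest bound in the other 4 libraries was 1.93. These intervals, and all others here, cover counting error only. Equal levels of the pair were thus seen in the 2 libraries with the highest Ccl3 and Ccl4, while control replicate 3 shared the ratio of the ccl5 libraries. Ccl9 over Ccl6 was laid out differently, at 0.931, 2.40 and 0.792 per kilobase with ccl5 and 2.68, 2.28 and 2.13 in controls. There ccl5 replicates 1 and 3 stood apart from the other libraries.

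Ccl6 (chromosome 11, 83587886 to 83593087, minus strand, 4 exons) is a rodent myeloid chemokine that binds Ccr1. It measured 76.2, 29.9 and 91.5 CPM in ccl5 libraries, against 181, 215 and 38.8 CPM in control libraries, so the arms overlapped. Its fitted log2 fold change was the smallest in size of the 9, at -1.14 with an SE of 0.71 (adjusted p = 0.487 in edgeR), and it was 0.62 (SE 0.88) for primary transplants alone and 0.74 (SE 0.74) against control replicate 3 alone.

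Ccl5 itself (chromosome 11, 83525779 to 83530518, minus strand, 3 exons) was scarcely transcribed, with 4, 3 and 3 counts in ccl5 libraries and 0, 0 and 9 counts in control libraries. Only ccl5 replicate 1 and control replicate 3 exceeded the floor of 3 counts, so no fold is given. An exact permutation test of mean CPM, two-sided, gave p = 0.8, and 3 libraries against 3 cannot go below 0.1. Leukocytes known for making Ccl5 include T and NK cells. Of 14 T and NK marker genes, 7 (among them Cd3e, Ncr1, Gzma and Gzmb) had at most 3 counts in every library. The others, among them Cd3d (at most 8 counts) and Klrk1 (at most 9), exceeded that in at least 1 library. That list summed to 1.91 to 63.1 CPM in ccl5 libraries and 3.61 to 70.1 CPM in the control arm. Its high values came from Nkg7, a granule membrane gene, at 60.4 CPM in ccl5 replicate 2 and 66.6 CPM in control replicate 3. The part of T and NK cells in the Ccl5 counts was not tested.

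Ccl2 and Ccl7 (MCP-1 and MCP-3) are the Ccr2 ligands of the set and draw monocytes out of the marrow in mice. Ccl2 (chromosome 11, 82035577 to 82037452, plus strand) had 113, 202 and 73 counts with ccl5, against 1011, 1511 and 213 counts in controls, before scaling. On the CPM scale ccl5 replicate 2 (12.3) lay just above control replicate 3 (11.7), so the arms overlapped. The mean was 8.997 ± 2.96 CPM over the ccl5 libraries and 52.1 ± 35.9 CPM over the controls (SD, n = 3 each). The log2 fold change was -2.53 with an SE of 0.72 (adjusted p = 0.365 in edgeR). It was -3.00 without control replicate 3 (adjusted p = 0.0444 in edgeR), a fit in which 1.09% of tested genes were called. For primary transplants alone it was -0.32 (SE 0.86).

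Ccl7 (chromosome 11, 82045712 to 82047523, plus strand) followed Ccl2 at a lower level. It measured 0.640, 2.01 and 0.545 CPM in ccl5 libraries, against 6.97, 9.74 and 1.70 CPM in control libraries. Again ccl5 replicate 2 exceeded control replicate 3, so the arms overlapped. The log2 fold change was -2.50 with an SE of 0.83 (adjusted p = 0.365 in edgeR). Without ccl5 replicate 2 it was -3.35 with an adjusted p of 0.0471 in edgeR, a fit in which 27.3% of tested genes were called. Per kilobase, Ccl2 exceeded Ccl7 between 6.07-fold and 12.4-fold in ccl5 libraries and between 6.81-fold and 9.11-fold in controls. The exact 95% intervals of all 6 libraries held the range 7.48 to 9.06 in common. Shared intervals are no test, and a difference in this ratio between libraries was not tested.

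**Figure D2:**
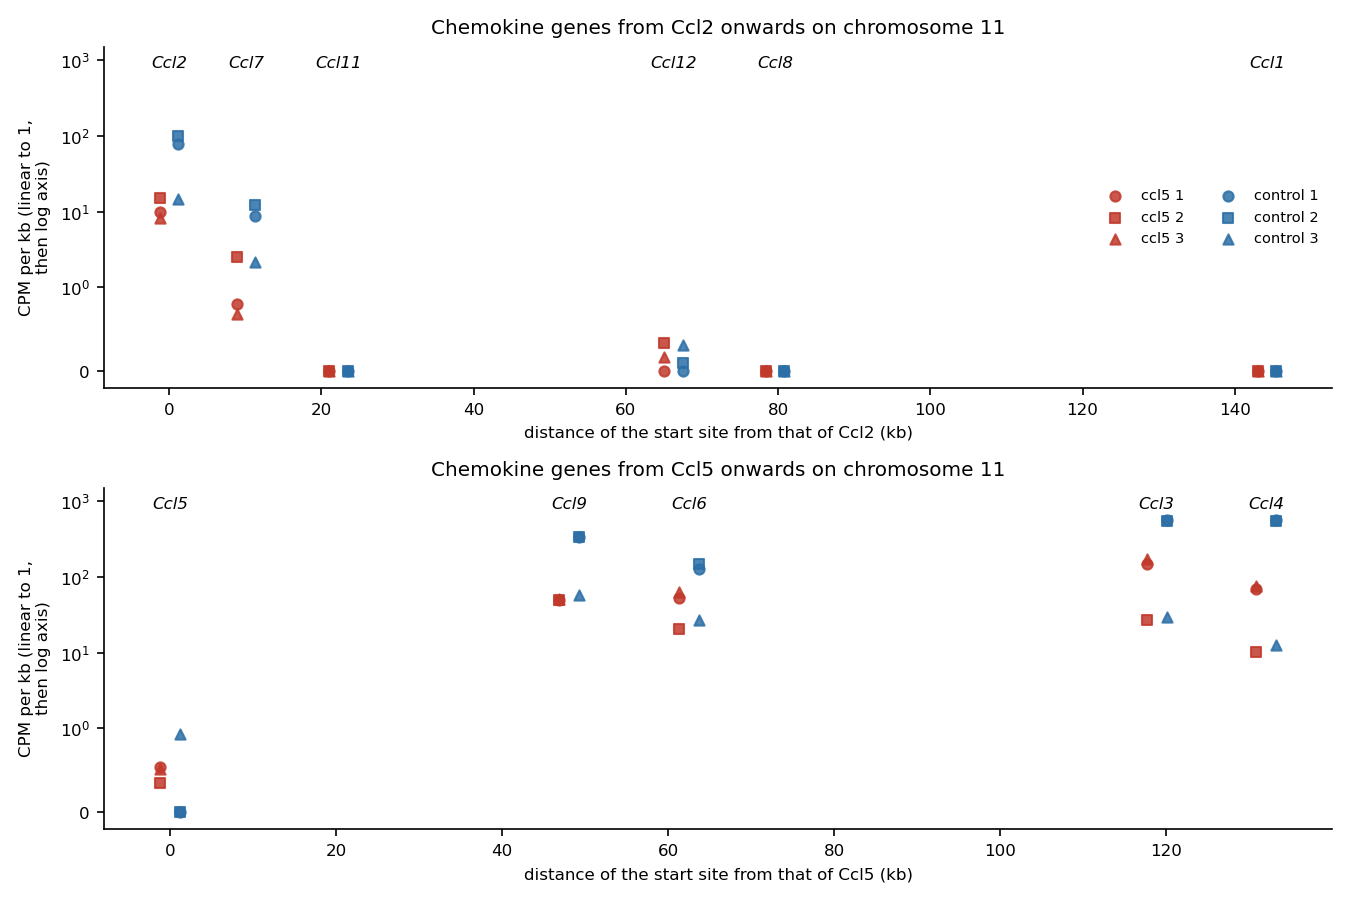
CPM per kilobase of exon (vertical, linear to 1 and logarithmic above) of the CC chemokine genes along both chromosome 11 clusters, by distance from the start site of the first gene (kb); red marks ccl5 and blue control libraries. Ccl2 and Ccl7 were expressed beside silent Ccl11, Ccl8 and Ccl1, while Ccl9, Ccl6, Ccl3 and Ccl4 stood far above Ccl5.

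Position separated expressed from silent ligands only in part. The cluster from Ccl2 to Ccl1 spans 144 kb. Within it Ccl11, Ccl8 and Ccl1 had 0 counts in all 6 libraries, and Ccl12 had at most 3. Ccl7 starts 10.1 kb and Ccl11 22.3 kb beyond the start of Ccl2. The cluster from Ccl5 to Ccl4 spans 139 kb, with Ccl9, Ccl6, Ccl3 and Ccl4 all expressed. E230016K23Rik, whose span covers Ccl6 on the opposite strand without sharing exon bases, had 8 to 11 counts in ccl5 libraries and 6 to 14 in controls. On chromosome 5, Cxcl2 was detected while its neighbour Cxcl1 had 0 counts throughout.

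Among the CXC ligands, Cxcl10 and Cxcl2 were low in every library, and Cxcl16 was not. Cxcl10 attracts T cells through Cxcr3 and is induced by interferon and by NF-kB (chromosome 5, 92346639 to 92348889, minus strand; its promoter window is printed above). Reads numbered 1, 38 and 1 in ccl5 replicates 1 to 3, against 120, 178 and 30 in control replicates 1 to 3. Only ccl5 replicates 1 and 3 were at or under the floor, and ccl5 replicate 2, at 2.32 CPM, exceeded control replicate 3, at 1.65 CPM. The fit gave an adjusted p of 0.392 in edgeR. Without ccl5 replicate 2 the adjusted p was 0.0210 in edgeR, a fit in which 27.3% of tested genes were called. The remaining ccl5 libraries held 1 count each, so the size of that fold depends on the prior count. Of 28 tested interferon response genes 0 passed in edgeR (0 higher and 1 lower at an unadjusted p under 0.05, beside 8.99% and 4.67% of all tested genes), with 16 fitted above and 12 below 0 and a median log2 fold change of 0.14, beside -0.01 over all tested genes.

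Cxcl2 (MIP-2; chromosome 5, 90903899 to 90905938, plus strand) draws neutrophils through Cxcr2. It had 1, 6 and 10 counts with ccl5 and 37, 40 and 3 counts in controls. Control replicates 1 and 2 stood highest and control replicate 3, at the floor, lay below ccl5 replicates 2 and 3. The log2 fold change was -1.81 with an SE of 1.14 (adjusted p = 0.49 in edgeR), and the sign turned for primary transplants alone (1.85, SE 1.52) and against control replicate 3 alone (1.34, SE 1.58).

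Cxcl16, made as a membrane-bound ligand of Cxcr6 and also a scavenger receptor, was the only tested ligand fitted above 0 (chromosome 11, 70454234 to 70459984, minus strand, 5 exons). It measured 37.9, 3.42 and 46.0 CPM in ccl5 libraries, against 0.823, 1.22 and 3.90 CPM in control libraries. High levels were confined to ccl5 replicates 1 and 3 among these 6 libraries, and ccl5 replicate 2 lay below control replicate 3, so the arms overlapped. The log2 fold change was 3.87 with an SE of 1.11 (adjusted p = 0.365 in edgeR). Without ccl5 replicate 2 the log2 fold change was 4.39 with an adjusted p of 0.0130 in edgeR, a fit in which 27.3% of tested genes were called. The ccl5 arm of that fit is an alike pair, so its p-values rest in part on the small spread within the pair, beside the spread of the controls. Among libraries with Y-linked reads, with ccl5 replicate 2 as the lone ccl5 library, the log2 fold change was 0.78 (SE 1.01). Cxcl16 was the only ligand gene to share exon bases with another gene in the file, Zmynd15, and counting was not strand-aware. Adam10, the main sheddase of CXCL16, measured 225, 152 and 213 CPM in the ccl5 arm and 252, 254 and 144 CPM in the control arm.

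**Figure D3:**
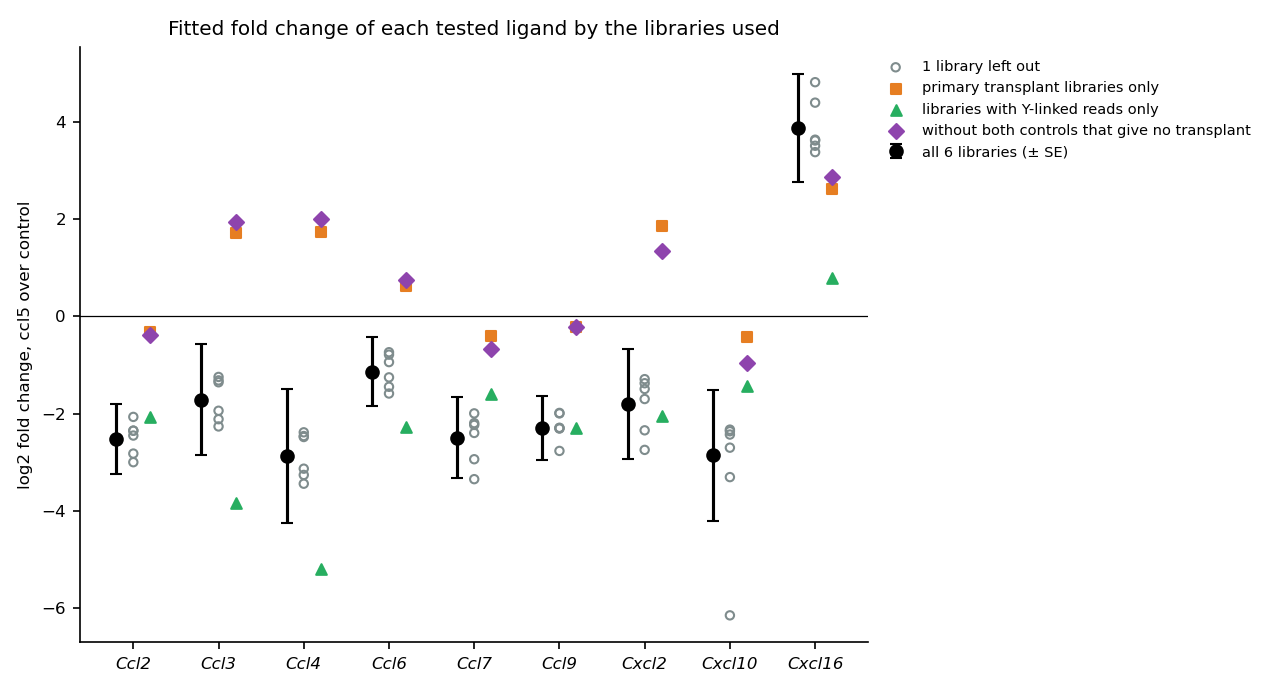
Fitted log2 fold change, ccl5 over control, of each tested ligand with all 6 libraries (black, ± SE) and with fewer libraries (open circles and coloured marks). Leaving out 1 library turned no sign, whereas comparisons against control replicate 3 alone turned Ccl3, Ccl4, Ccl6 and Cxcl2 above 0.

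Because ccl5 replicate 2 and control replicate 3 were alike, both primary and both with Y-linked reads, their ligand levels are given side by side; the values compare these libraries and not the conditions. The ratio of ccl5 replicate 2 over control replicate 3 was 1.05 for Ccl2 (95% interval 0.864 to 1.28), 0.897 for Ccl3 (0.776 to 1.04) and 0.806 for Ccl4 (0.625 to 1.04). It was 0.876 for Cxcl16 (0.606 to 1.26), 1.18 for Ccl7 (0.702 to 1.995) and 1.41 for Cxcl10 (0.849 to 2.35). Intervals below 1 were found for Ccl6 (0.771, 0.685 to 0.866) and Ccl9 (0.868, 0.823 to 0.916). Both lay within 1.5-fold, as did 98.6% of tested genes in this pair. Counts of the pair differed by more than sampling noise (mean chi-square per gene 4.53, where noise gives 1). The share of all tested genes with an interval below 1 was not counted, so these intervals do not single out Ccl6 and Ccl9. For Cxcl2 (6 and 3 counts) and Ccl5 (3 and 9 counts) the intervals ran from 0.474 to 13.7 and from 0.0644 to 1.48.

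**Figure D4:**
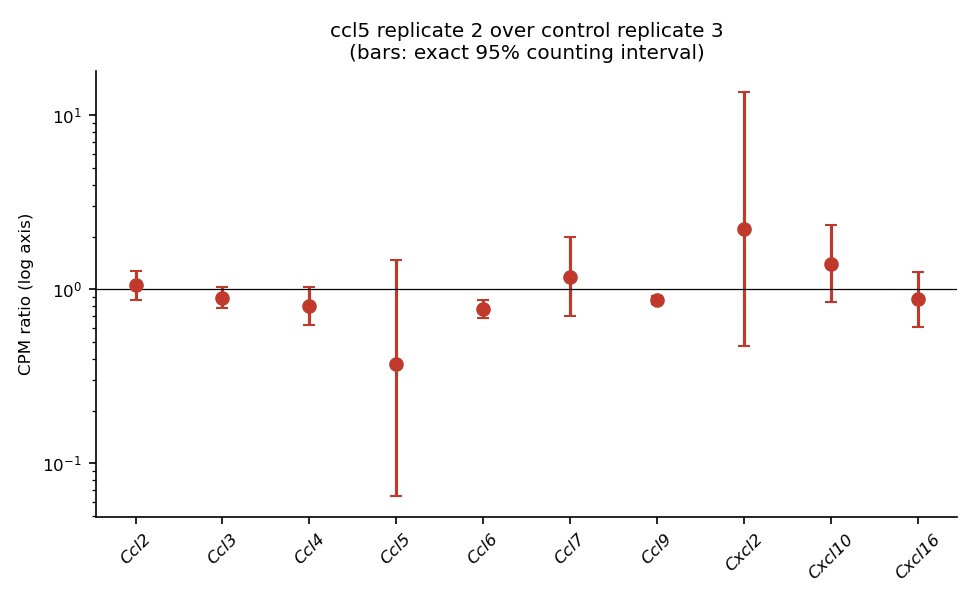
Ratio of CPM in ccl5 replicate 2 over control replicate 3 for each ligand gene (logarithmic axis), with exact 95% intervals for counting error. Only Ccl6 and Ccl9 have intervals that stay below 1, at 0.771 and 0.868.

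Levels of different ligands were set beside each other as CPM per kilobase of exon. In ccl5 libraries Ccl3 averaged 116 ± 78.1, Ccl4 51.6 ± 36.0, Ccl9 49.9 ± 0.55 and Ccl6 45.9 ± 22.3 CPM per kilobase (SD, n = 3), followed by Cxcl16 at 11.9 ± 9.24 and Ccl2 at 11.2 ± 3.67. In control libraries the order was Ccl3 at 381 ± 304, Ccl4 at 378 ± 316, Ccl9 at 246 ± 163, Ccl6 at 101 ± 65.1 and Ccl2 at 64.6 ± 44.5, with Cxcl16 at 0.81 ± 0.683. Between libraries, the SDs of neighbours among the leading 4 overlapped in both arms. Within libraries Ccl3 exceeded Ccl4 in all 3 ccl5 libraries, and Ccl9 exceeded Ccl6 in all 3 controls, with intervals above 1. In its highest library Ccl4 stood within the top 0.878% of detected genes per kilobase, Ccl3 within 0.896% and Ccl9 within 1.26%. Ccl7, Cxcl10, Cxcl2 and Ccl5 averaged at most 1.33 CPM per kilobase over the ccl5 libraries and at most 7.68 over the controls.

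**Figure D5:**
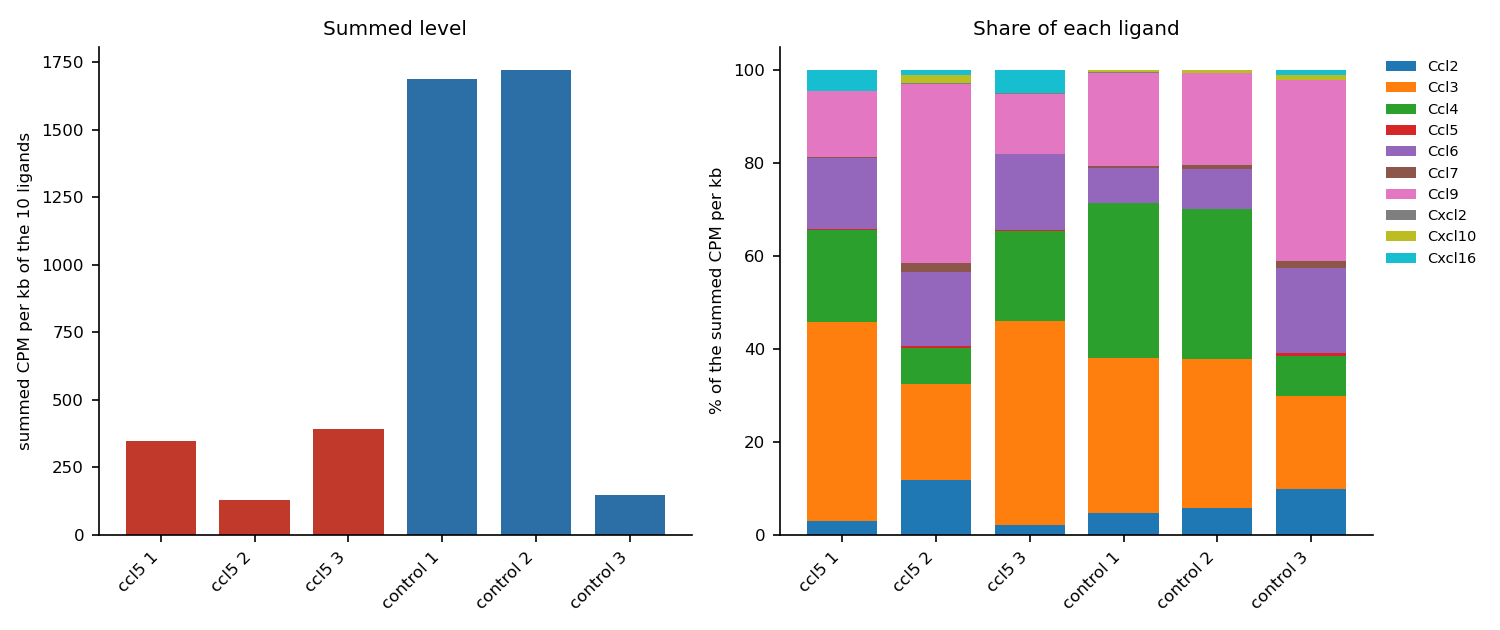
Left, summed CPM per kilobase of the 10 ligand genes in each library (ccl5 red, control blue). Right, the share of each gene in that sum: Ccl9 led in ccl5 replicate 2 and control replicate 3, and Ccl3 or Ccl4 in the other libraries.

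Summed over the 10 genes, ligand transcripts reached 347, 129.6 and 391 CPM per kilobase in ccl5 replicates 1 to 3, against 1690.4, 1721 and 148 in control replicates 1 to 3. Their makeup differed as well. Ccl3 and Ccl9 held 43.0% and 14.2% of the sum in ccl5 replicate 1, 20.6% and 38.5% in ccl5 replicate 2, and 43.9% and 12.9% in ccl5 replicate 3. They held 33.4% and 20.03% in control replicate 1, 31.9% and 19.9% in control replicate 2, and 20.1% and 38.9% in control replicate 3. The summed monocyte and macrophage markers, with all 14 genes tested, were lowest in the same 2 libraries as the ligand sum. Unlike that sum, they were highest in ccl5 replicates 1 and 3. They summed to 18539, 3702 and 21331 CPM in the ccl5 arm and 11964, 11722 and 4035 CPM in the control arm. Most of that was Lyz2, at 14716, 3020 and 17556 CPM in the ccl5 arm and 10971, 10672 and 3339 CPM in the control arm. Some markers were laid out otherwise. C1qb measured 130, 69.6 and 110 CPM in the ccl5 arm and 1.27, 1.06 and 67.4 CPM in the control arm. Cd14 measured 31.2, 17.6 and 29.9 CPM in the ccl5 arm, against 194, 188 and 18.3 CPM in the control arm. Neutrophil markers summed to 273, 12693 and 261 CPM in the ccl5 arm and 894, 939.7 and 12266 CPM in the control arm. The high values came mainly from Ngp, Elane, S100a8 and S100a9. Csf3r of the same list was laid out otherwise, at 232, 192 and 232 CPM in the ccl5 arm and 68.2, 63.1 and 200 CPM in the control arm. Dendritic cell markers summed to 135, 4.21 and 104 CPM in the ccl5 arm, against 102, 109 and 5.27 CPM in the control arm, and nearly all of that was Itgax, an integrin that other myeloid cells also carry, at 123, 2.81 and 94.7 CPM in the ccl5 arm, against 101, 108 and 3.24 CPM in the control arm. The part of these markers in the ligand levels was not tested. Fibroblast and stromal markers summed to at most 1.9996 CPM in the ccl5 libraries and 1.81 CPM in the controls, and erythroid markers to at most 2.01 and 1.81 CPM. The 6 B-cell markers summed to 11.4 to 15.6 CPM in ccl5 libraries and 11.4 to 16.8 CPM in controls. Most of that was Cd79b, at 10.5 to 14.9 CPM in ccl5 libraries and 11.1 to 15.9 CPM in controls, while 4 of the 6, among them Ms4a1, Pax5 and Ebf1, had at most 3 counts in every library.

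The other 31 mouse chemokine ligand genes were mostly silent. Of these, 19 had at most 3 counts in every library, 5 were tested and 0 passed in edgeR, also at an unadjusted p under 0.05, with 2 fitted above and 3 below 0 and a median log2 fold change of -0.52, beside -0.01 over all tested genes. Pf4, a platelet chemokine, measured 24.4, 5.25 and 23.0 CPM in the ccl5 arm, against 0.317, 0.479 and 7.53 CPM in the control arm. Ppbp, another platelet chemokine, measured 2.56, 2.87 and 3.36 CPM in the ccl5 arm and 0.127, 0 and 3.35 CPM in the control arm. Control replicates 1 and 2, highest for most of the 10 ligands, were thus lowest for these. Of the other 3 platelet and megakaryocyte markers, Itga2b measured 0.732 to 6.05 CPM in ccl5 libraries and 1.81 to 3.89 CPM in controls, Gp9 had at most 3 counts and Gp1bb at most 6. The part of such cells in these values was not tested. Cxcl14 measured 0.782, 0.244 and 0.545 CPM in the ccl5 arm and 2.66, 2.82 and 0.385 CPM in the control arm. Ccl25 measured 2.18 to 5.85 CPM in the ccl5 arm and 4.90 to 5.26 CPM in the control arm, and Ccl27a 0.454 to 3.78 and 1.70 to 4.78 CPM.

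Among the receptors given here, Ccr2 and Ccr1 stood highest. Ccr2, the receptor of Ccl2 and Ccl7, measured 456, 293 and 499.8 CPM in the ccl5 arm and 921, 905 and 341 CPM in the control arm. Ccr1 measured 152, 74.0 and 169 CPM in the ccl5 arm, against 249, 256 and 81.5 CPM in the control arm. Cxcr2 ranged from 5.90 to 10.8 CPM in the ccl5 arm and from 7.24 to 10.3 CPM in the control arm, and Cxcr6 from 0.61 to 1.64 and 0.385 to 1.76 CPM. Cxcr3 had at most 5 counts in any library, and Ccr3 at most 1. Of 9 tested chemokine receptors 0 passed in edgeR, also at an unadjusted p under 0.05, with 5 fitted above and 4 below 0 (median 0.06). Ccrl2, an atypical receptor that presents chemerin without signalling, was the only tested gene among 6 atypical receptors. It measured 55.5, 11.039 and 74.1 CPM in the ccl5 arm and 3.93, 4.26 and 9.78 CPM in the control arm, and its fitted log2 fold change was 2.96 with an SE of 0.78 (adjusted p = 0.365 in edgeR).

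Genes of the NF-kB early response were mostly fitted above 0, unlike the ligands. Of 25 tested, 0 passed in edgeR (6 higher and 2 lower at an unadjusted p under 0.05), beside 8.99% higher and 4.67% lower among all tested genes. Fitted values were above 0 for 19 and below 0 for 6 (51% of all tested genes were below 0), with a median log2 fold change of 0.53, beside -0.01 over all tested genes. The genes with the smallest p were laid out like Ccl2. Tnf, the inflammatory cytokine, measured 2.84, 3.78 and 2.82 CPM in the ccl5 arm and 61.7, 75.7 and 4.06 CPM in the control arm. Nfkbia, the NF-kB inhibitor, measured 42.0, 67.9 and 45.9 CPM in the ccl5 arm and 263, 265 and 71.7 CPM in the control arm. Their log2 fold changes were -3.90 (SE 1.03) and -1.94 (SE 0.53), each with an adjusted p of 0.365 in edgeR. Among interferon response genes the smallest p belonged to Ifi47, at 3.49, 5.43 and 3.91 CPM in the ccl5 arm and 25.1, 27.04 and 5.05 CPM in the control arm, and to Irf7, at 10.4, 8.48 and 13.4 against 3.17, 2.45 and 8.02 CPM. Among 14 tested genes of chemokine processing 0 passed in edgeR (3 higher and 0 lower at an unadjusted p under 0.05, beside 8.99% and 4.67% of all tested genes), with 6 fitted above and 8 below 0 (median -0.10). Those with the smallest p were Mmp14, a membrane metalloprotease, at 60.3, 10.6 and 60.4 against 1.08, 1.65 and 7.36 CPM, and Cpd, a carboxypeptidase, at 286, 214 and 292 against 142, 138 and 187 CPM.

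The genes most like each ligand across the 6 libraries were found by Pearson correlation of log2 CPM. Since the libraries form 3 alike pairs, each r rests on little more than 3 separate levels. For Ccl2 they were Dnm1l, Clec5a and Slc25a13 (r 0.999, 0.999 and 0.998), and Clec5a, a myeloid activating receptor, measured 13.4, 19.5 and 10.8 CPM in the ccl5 arm and 153, 177 and 21.4 CPM in the control arm. For Ccl3 they were S100a6, Pgk1 and Pvt1, and for Ccl4 Pdk1, Pfn2 and Cdkn2a (each r at least 0.999). S100a6 measured 192, 26.6 and 202 CPM in the ccl5 arm and 861, 892 and 29.8 CPM in the control arm. Ccl6 was nearest to Ubn2, Agtpbp1 and Chmp2a, Ccl7 to Psmc1, Pcca and Bag2, and Ccl9 to Pcsk4, Srp54b and Mrps10. Correlation takes no account of the size of a change, and some of these genes varied far less than their ligand. Psmc1 measured 100.4, 110.2 and 98.3 CPM in the ccl5 arm and 123.6, 128.9 and 109.4 CPM in the control arm. Cxcl10 was nearest to Mboat1, Leo1 and Nif3l1, and Cxcl16 to Apaf1, Ppfibp2 and Mettl7a2. For Cxcl2, the scarcest of the tested ligands, they were Cyp2u1, Trmt61a and Snupn (r 0.993, 0.989 and 0.983).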

How the data were processed

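Per the labels' protocols, polyA-selected RNA was sequenced from a single end. The deposited table holds raw counts per gene, made by the authors with featureCounts 1.5.1 from primary alignments and the UCSC mm10 annotation, with no strand option, per the file headers. Per the submitters' processing notes, TopHat, Bowtie, Trimmomatic and DESeq2 are listed as further tools. The deposited gene length served only to give CPM per kilobase.

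Groups followed the treatment label, 3 libraries each. Replicate numbers of controls come from the titles and those of ccl5 libraries from accession order. Counts were scaled by TMM, filtered with filterByExpr (minimum count 10; 12174 genes left) and tested two-sided with edgeR 4.0.16 (quasi-likelihood; R 4.3.3), adjusted by Benjamini-Hochberg over all tested genes at 0.05. The SE was derived from the fold change and its F statistic. Ratios between single libraries have exact 95% binomial intervals. The procedure was checked on simulated counts of independent libraries. These lack the 3 alike pairs, so the check does not cover that structure.

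Alternatives were other scalings and filters, DESeq2 1.42.0, limma-voom (limma 3.58.1), a threshold of 0.1, each library left out, primary transplants only and libraries with Y-linked reads only. The fit against control replicate 3 alone and the side-by-side values of ccl5 replicate 2 and control replicate 3 were added after seeing the data. The ligands, lists and tests were chosen with earlier results of these data known. Named genes are all 10 ligands, receptors that bind them (1 is not reported here), every tested other ligand, up to 2 genes of smallest p per list, and the 3 genes most correlated with each tested ligand whose CPM spanned over 4-fold, predicted genes passed over. Adam10, the marker genes and the cluster neighbours fall outside that rule and were chosen after their values were seen.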

Additional observations from a re-analysis of the deposited data

How the results depend on the processing

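With all 6 libraries, no ligand and no gene was called by edgeR under either other scaling, either other filter or a threshold of 0.1. DESeq2 called 191 genes and 3 ligands, and limma-voom with quality weights called 8097 genes and 9 ligands. Leaving out each library in turn gave 0 to 3327 genes and 0 to 3 ligands. The calls came without ccl5 replicate 2 (3327 genes; Ccl7, Cxcl10 and Cxcl16) and without control replicate 3 (133 genes; Ccl2 and Ccl9). Either omission leaves an alike pair as a whole arm, so the adjusted p-values rest in part on the small spread within that pair. The other arm, which still joins libraries of different pairs, enters the same variance estimate. Signs turned for primary transplants only in Ccl3 (1.71), Ccl4 (1.72), Ccl6 (0.62) and Cxcl2 (1.85), and against control replicate 3 alone in the same genes (1.94, 1.99, 0.74 and 1.34). These 2 fits hold a lone control, and the fit of libraries with Y-linked reads a lone ccl5 library, each assumed to vary like the other arm. That fit turned no sign. The cause of these differences was not tested. The permutation p of Ccl5 was 1 with plain library sizes and ran from 0.1 to 1 without single libraries, with the direction turned without control replicate 1 and without control replicate 2. Plain library sizes moved the median log2 fold change of all tested genes to -0.17, beside -0.01, and ligand folds are read against that shift. Depth limits Ccl5, Cxcl2 and Cxcl10, each at or under 3 counts in some libraries. No paired analysis was possible because the labels hold nothing that pairs single libraries of the arms. Replicate numbers of the ccl5 arm follow only the order of deposition.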
